A study of Homo sapiens with 12 samples.

Results

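The interaction between the shMOF label and the ERα label asks, for each gene, whether the difference between shMOF and control arrays depended on the ERα condition. It is the shMOF minus control difference in ERα(+) less the same difference in ERα(-), on the log2 scale. It was taken over all 12 of the 12 arrays in the series and for all 14884 genes that could be named and tested, so no array and no gene was picked by its value. The arrays held total RNA of Ishikawa cells, an established human endometrial adenocarcinoma line, in 4 groups of 3: control ERα(-), shMOF ERα(-), control ERα(+) and shMOF ERα(+). The gene KAT8 encodes MOF, a histone acetyltransferase, shMOF cells are by their name cells with a short hairpin against it, and ESR1 encodes the oestrogen receptor ERα. What was done to make a culture ERα(-) or ERα(+), the hairpin sequence, any clone or promoter used, and whether replicates came from separate cultures are details not given in the sources used for this work. P-values therefore reflect only how far these arrays spread, and that spread may be technical. Values are log2 signals after robust multi-array averaging (RMA), and array medians lay between 4.53 and 4.59.

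An interaction above 0 means that a gene stood higher, relative to control, with shMOF in ERα(+) than in ERα(-), and it can arise in either condition or in both. Interferon genes, the list described most fully here, form a chain of defence against virus: sensors such as RIG-I and MDA5 recognise foreign RNA, signalling factors carry the message to the nucleus, and interferon then acts through its receptors and the factor complex containing IRF9 on effector genes whose products bind viral RNA, block translation or tag proteins. Many promoters of such effectors hold an interferon-stimulated response element, a pair of GAAA blocks or its reverse complement. MOF acetylates lysine on histone H4 in the MSL and NSL complexes, and ERα is a hormone-bound transcription factor that governs growth of the endometrial epithelium.

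The labels were checked first. KAT8 did not follow the shMOF label. Its log2 signals were 6.76, 6.87 and 6.68 in control ERα(-), 6.78, 6.76 and 6.72 in shMOF ERα(-), 6.80, 6.60 and 6.81 in control ERα(+), and 6.66, 6.66 and 7.02 in shMOF ERα(+). The groups overlapped in both conditions, and the interaction was 0.05 (95% interval -0.33 to 0.44). ESR1 had log2 signals of 4.43, 4.12 and 4.28 in control ERα(-), 4.52, 4.39 and 4.34 in shMOF ERα(-), 4.40, 4.65 and 4.32 in control ERα(+), and 4.28, 4.27 and 4.27 in shMOF ERα(+). The ERα(+) label did not go with higher ESR1, and its interaction was -0.33 (-0.70 to 0.05). ESR1 was dim, below the median level of tested genes (5.66), where RMA can compress differences, so this check is weak. Group names below are therefore those of the labels, and every direction is between labelled arrays. All 10 measured markers of endometrial epithelium lay above the median level of tested genes, against 0 of 4 fibroblast, 1 of 4 immune (CD68) and 0 of 4 endothelial markers. CD68, a lysosomal protein of macrophages that other cells also express, had an interaction of -1.10 ± 0.38 (SE, adjusted p = 0.219), which was -1.46 without shMOF ERα(-) replicate 2 (adjusted p = 0.0222) and -0.35 with the first principal component in the model. The mean log2 signal of the 4 immune markers was 4.65 to 4.77 in control ERα(-), 4.59 to 4.93 in shMOF ERα(-), 4.66 to 5.0 in control ERα(+) and 4.54 to 4.60 in shMOF ERα(+), and the part of such cells in the results was not tested.

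One array stood apart from its label. On shMOF ERα(-) replicate 2, 66.5% of genes lay closer to the mean of the control ERα(-) arrays than to that of the other shMOF ERα(-) arrays, against 28.6% to 57.0% on the other 11 arrays by the same measure within their own condition. After centring each gene on its mean over the 12 arrays, this array correlated across genes at -0.433 on average with the other arrays of its group and at 0.07 with control ERα(-). Results are given with all arrays first and without this array where that changes them. This array was singled out for lying near control ERα(-), so leaving it out tends to enlarge the ERα(-) difference and lower the spread. Results without it are therefore descriptions.

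With all 12 arrays limma called 0 of 14884 genes for the interaction (0% of genes tested), with a smallest Benjamini-Hochberg adjusted p of 0.0696. At an unadjusted p below 0.05 there were 2685 genes (18% of those tested), where 744.2 are expected by chance: 1391 above 0 (9.35%) and 1294 below 0 (8.69%). Without shMOF ERα(-) replicate 2 the same test called 570 genes (3.83%), 337 above 0 (2.26%) and 233 below 0 (1.57%). Of these, 552 had an unadjusted p below 0.05 on all arrays, and all 570 had the same sign there. The 2 fits share every other array, so this overlap is largely built in. In the fit without that array shMOF ERα(-) rests on 2 arrays, and their spread is taken from all groups. Without shMOF ERα(+) replicate 1 the test called 11 genes (0.0739%), and without control ERα(+) replicate 3 it called 1 (MIR520A, 0.00672%). With the letter in each sample's code as a random block it called 5 (0.0336%). The fitted correlation of arrays with the same letter was -0.15. A negative value can narrow the error of a group mean whose arrays share a letter. Without the 3 arrays farthest from their group means the test called 57 (0.383%). These arrays were picked for that distance, so leaving them out tends to lower the spread, and this count is a description. Array weights raised the number to 3258 (21.9%), but that fit gave shMOF ERα(-) replicate 3 a weight of 8.86 against 0.359 to 3.70 on the other arrays. The median half-width of the 95% interval was 0.46, so for a typical gene an interaction smaller than that has an interval that includes 0.

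The count at an unadjusted p below 0.05 also turned on single arrays. It was 1494 without shMOF ERα(+) replicate 2, 1555 without shMOF ERα(-) replicate 1, 1719 without control ERα(+) replicate 3 and 4036 without shMOF ERα(-) replicate 2. The first principal component of all arrays held 36.8% of the variance, had positive scores on each of the 3 control ERα(+) arrays and negative scores on each of the 3 labelled shMOF ERα(+). It therefore overlaps the comparison. With this component in the model, 758 genes had an unadjusted p below 0.05, 448 above 0 (3.01%) and 310 below 0 (2.08%). Of these, 293 were among the 2685 with the same sign. The median interaction over all genes was -0.03.

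Opposite movement in the 2 conditions was common among the genes with a large interaction. Of the 2685 genes, 2642 (98.4%) had differences of opposite sign in ERα(-) and ERα(+), against 62.8% of all genes, and 2162 (80.5%) had the larger part in ERα(+), against 66.1% of all. Choosing genes by the size of the interaction itself favours opposite signs. It also favours genes with a large difference in ERα(+), where the larger part lay for most genes. Both pairs of shares are therefore descriptions. Across all genes, which are not independent replicates, the differences of the 2 conditions correlated at r = -0.387. They share no array, though all arrays were normalized together. The strictest form, in which the 3 shMOF arrays lay wholly on one side of control in ERα(-) and wholly on the other in ERα(+), was met by 187 genes (1.26%), 81 below then above (0.544%) and 106 above then below (0.712%). Groups separated the same way in both conditions for 51 genes (0.343%).

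**Figure D1:**
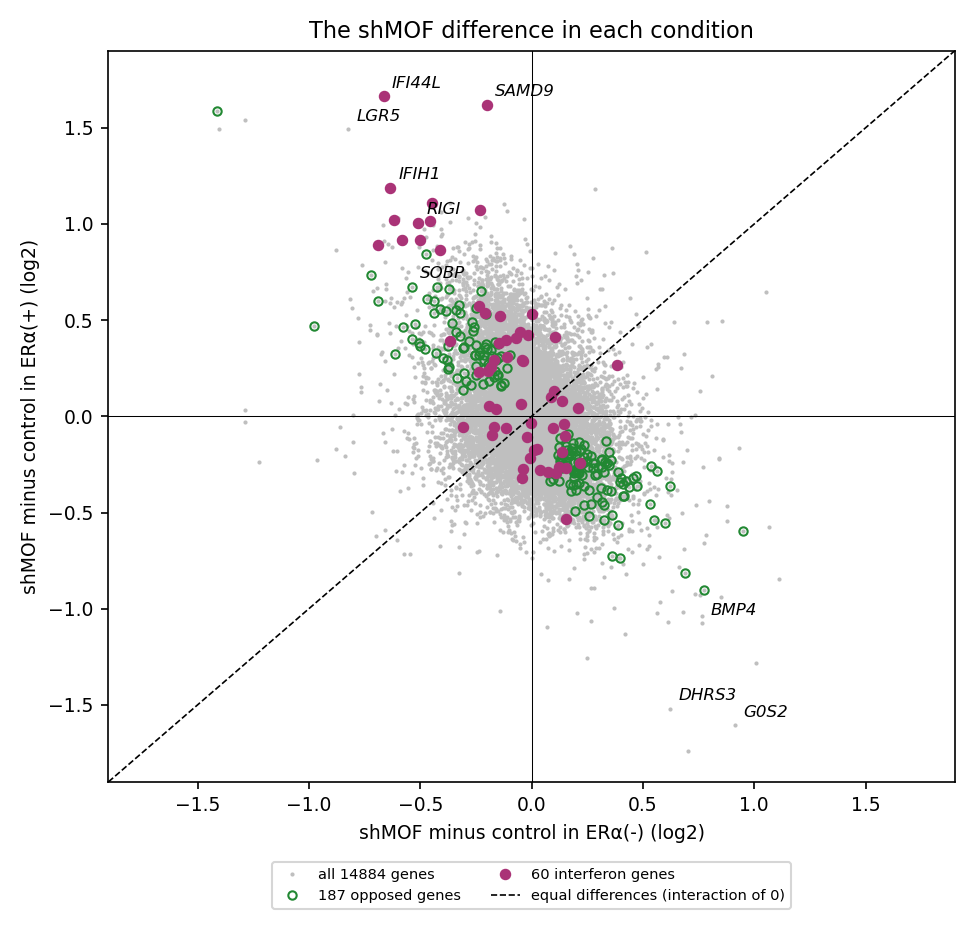
Each grey point is 1 of 14884 genes, with the shMOF minus control log2 difference in ERα(-) on the x axis and in ERα(+) on the y axis; open circles mark the 187 genes separated in opposite directions, filled circles the 60 measured interferon genes, and the dashed line an interaction of 0. The cloud leans from upper left to lower right (r = -0.387 across genes), with IFI44L and SAMD9 at the upper left and G0S2 and DHRS3 at the lower right.

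The group means behind these interactions are given as a description. Choosing genes by an interaction above 0 favours a lowest mean in control ERα(+) or shMOF ERα(-) and a highest mean in one of the other groups, and the reverse for those below 0. Of the 1391 genes with an interaction above 0 at an unadjusted p below 0.05, 1210 had their lowest mean in control ERα(+) and 179 in shMOF ERα(-). Their highest mean was in shMOF ERα(+) for 965 and in control ERα(-) for 426. Of the 1294 genes below 0, 1081 had their highest mean in control ERα(+) and 213 in shMOF ERα(-), and the lowest mean was in shMOF ERα(+) for 697 and in control ERα(-) for 596.

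Interferon genes lay above the median of all genes. Of the 94 genes on the interferon list, 60 were measured, and 39 of them had an interaction above 0, against 46.5% of all genes. At an unadjusted p below 0.05, 20 lay above 0 (9.35% of all genes did) and 2 below 0 (8.69%), and 0 passed the adjusted test on all arrays. The median interaction was 0.28, made of a median difference of -0.06 in ERα(-) and 0.23 in ERα(+), against -0.03 over all genes. For 32 members (53.3%) the lowest mean was in control ERα(+), against 29.5% of all genes, and for 28 (46.7%) the highest was in shMOF ERα(+), against 26.0%. Without shMOF ERα(-) replicate 2, 12 members passed the adjusted test, all above 0 (2.26% of all genes did so). With the first principal component in the model, 15 members lay above 0 at an unadjusted p below 0.05 (3.01% of all genes), 13 of them among the 20, and the median was 0.27. The 16 interferon genes named had a median size of 0.84 there in place of 1.49. All 16 kept their sign and 12 had an unadjusted p below 0.05. SAMD9 fell from 1.82 to 0.60 and DDX60 from 1.64 to 0.69, neither at that p. The 3 arrays farthest from their group means were control ERα(-) replicate 1, shMOF ERα(-) replicate 2 and control ERα(+) replicate 3. Without them, 25 members lay above 0 at an unadjusted p below 0.05 (11.7% of all genes) and 4 below (10.4%). Leaving out arrays picked for their distance tends to lower the spread, so these counts are descriptions. The other genes of the list, among them the ligands IFNB1, IFNA1 and IFNG and the receptor genes IFNAR1 and IFNAR2, had no named probe set and were not analysed here.

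The response element was looked for in the RefSeq promoters of these genes (GRCh38.p14, 250 bases before to 50 after the start), as GAAANNGAAA or its reverse complement TTTCNNTTTC on the strand of the gene. It was present for 29 of the 47 measured interferon genes with a promoter entry (61.7%), against 418 of 10749 tested genes (3.89%). Among the 20 members above 0 at an unadjusted p below 0.05, 17 had an entry and 13 of these held it (76.5%), against 16 of 30 of the other members (53.3%). By role the share was 75% for effectors, 50% for sensors and 16.7% for signalling genes, and 13 of the 20 are effectors. The list was drawn up of interferon genes, so its high share is no result of these arrays. The match is between letters and says nothing about binding in these cells. The stretches below are those of the sensor IFIH1 and of effectors and a chemokine described next, read 5′ to 3′ on the strand of the gene with the motif in capitals. They are shown because these members are described next and share the same blocks at different distances from the start. RIGI, EIF2AK2, TLR3, IRF9, SP110 and HERC6, also above 0 at an unadjusted p below 0.05, had no match wholly before the start.
IFIH1 (GRCh38.p14 chr2:162318685-162318725, minus strand, motif ending 12 bases before the start): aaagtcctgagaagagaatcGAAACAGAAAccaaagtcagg
IFIT1 (chr10:89392487-89392549, plus strand, 2 matches, the nearer ending 94 bases before the start): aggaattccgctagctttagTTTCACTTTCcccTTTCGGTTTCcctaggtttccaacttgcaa
IFIT3 (chr10:89332458-89332507, plus strand, 42 bases before): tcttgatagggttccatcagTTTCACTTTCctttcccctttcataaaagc
IFI44 (chr1:78649751-78649788, plus strand, 9 bases before): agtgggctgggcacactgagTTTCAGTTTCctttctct
IFI44L (chr1:78620355-78620404, plus strand, 64 bases before): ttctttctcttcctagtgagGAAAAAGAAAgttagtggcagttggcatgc
RSAD2 (chr2:6877612-6877661, plus strand, 136 bases before): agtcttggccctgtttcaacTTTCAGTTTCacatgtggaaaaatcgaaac
SAMD9 (chr7:93118086-93118135, minus strand, 127 bases before): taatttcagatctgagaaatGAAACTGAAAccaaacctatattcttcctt
HERC5 (chr4:88457025-88457074, plus strand, 65 bases before): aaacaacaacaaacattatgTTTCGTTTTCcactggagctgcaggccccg
DDX60 (chr4:168318776-168318825, minus strand, 44 bases before): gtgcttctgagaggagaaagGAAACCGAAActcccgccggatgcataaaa
CXCL10 (chr4:76023689-76023738, minus strand, 212 bases before): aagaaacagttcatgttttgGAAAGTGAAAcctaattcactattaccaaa

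Of the sensors, 4 of 10 lay above 0 at an unadjusted p below 0.05 (40%, against 9.35% of all genes). Below 0 there were 0 (8.69% of all genes), and the median was 0.08. IFIH1 encodes MDA5, the sensor of long double-stranded RNA. Its log2 signals were 5.82, 5.60 and 5.41 in control ERα(-), 4.66, 5.50 and 4.76 in shMOF ERα(-), 4.74, 4.40 and 4.57 in control ERα(+), and 5.27, 6.12 and 5.89 in shMOF ERα(+). The ERα(+) groups did not overlap, whereas in ERα(-) replicate 2 of shMOF lay among the control arrays and the other 2 well below them. The interaction was 1.83 ± 0.34 (SE, adjusted p = 0.169), made of -0.64 in ERα(-) and 1.19 in ERα(+), and it was 2.09 without shMOF ERα(-) replicate 2 (adjusted p = 0.00672). RIGI, the sensor of RNA with a 5′ triphosphate, had log2 signals of 7.85, 7.58 and 7.66 in control ERα(-), 6.92, 7.52 and 7.12 in shMOF ERα(-), 6.56, 7.11 and 6.61 in control ERα(+), and 7.21, 8.17 and 7.91 in shMOF ERα(+). Here every shMOF array lay below control in ERα(-) and above it in ERα(+). The interaction was 1.52 ± 0.33 (SE, adjusted p = 0.169), and 1.68 without shMOF ERα(-) replicate 2 (adjusted p = 0.0259).

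The other sensors were less marked. EIF2AK2, the kinase PKR that halts translation on double-stranded RNA, had an interaction of 0.51 (adjusted p = 0.233), and TLR3, the endosomal RNA receptor, one of 0.44 (adjusted p = 0.261) at a level in the lowest 8.98% of genes. The DNA-sensing pair CGAS (-0.32) and STING1 (-0.25) and the adaptor MAVS (-0.23) lay below 0 without reaching an unadjusted p below 0.05. The median of the sensors turned to -0.03 without shMOF ERα(-) replicate 2.

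Of 9 measured signalling genes, 1 lay above and 1 below 0 at an unadjusted p below 0.05, with a median of 0.11. Each is a share of 11.1%, near the 9.35% above and 8.69% below 0 of all genes. IRF9, the DNA-binding subunit of the complex that interferon activates, had an interaction of 0.46 (adjusted p = 0.26), and IRF3, which acts downstream of the sensors, one of -0.42 (adjusted p = 0.256). The kinases JAK1 (0.53) and JAK2 (0.49) lay above 0 and TYK2 (-0.39), SOCS1 (-0.37) and IRF1 (-0.40) below it, none at an unadjusted p below 0.05. The 2 measured interferon-gamma receptor genes were at 0.42 (IFNGR1) and -0.19 (IFNGR2).

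Antiviral effectors were 33 of the 60 measured interferon genes. Of these, 25 had an interaction above 0, against 46.5% of all genes, with a median of 0.43. At an unadjusted p below 0.05, 13 lay above 0 (39.4%, against 9.35% of all genes) and 0 below (8.69% of all genes did). The share above 0 at that p was 40% for sensors and 50% for chemokines. IFI44L, an interferon-induced gene next to IFI44 on chromosome 1, had the largest interaction of the list. Its log2 signals were 5.62, 5.27 and 5.31 in control ERα(-), 4.38, 5.42 and 4.41 in shMOF ERα(-), 4.26, 3.97 and 4.29 in control ERα(+), and 5.35, 6.17 and 6.0 in shMOF ERα(+). Signals of 4.41 or below on 5 arrays (all control ERα(+), shMOF ERα(-) replicates 1 and 3) stood against 5.27 or above on the other 7. The interaction was 2.33 ± 0.37 (SE, 95% interval 1.53 to 3.13, adjusted p = 0.0696). It passed without shMOF ERα(-) replicate 2 (2.67, adjusted p = 0.00123).

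IFI44 had log2 signals of 4.96, 5.08 and 5.28 in control ERα(-), 4.5, 5.16 and 4.31 in shMOF ERα(-), 4.51, 4.29 and 4.36 in control ERα(+), and 5.16, 6.01 and 5.30 in shMOF ERα(+). Its interaction was 1.56 ± 0.33 (SE, adjusted p = 0.169), with the same split of arrays as its neighbour. SAMD9, a cytoplasmic restriction factor of poxviruses, had log2 signals of 5.25, 5.13 and 5.48 in control ERα(-), 4.67, 5.83 and 4.75 in shMOF ERα(-), 4.40, 4.49 and 4.15 in control ERα(+), and 5.25, 6.57 and 6.09 in shMOF ERα(+). Its shMOF ERα(-) replicate 2 lay above all control ERα(-) arrays. The interaction was 1.82 ± 0.45 (SE, adjusted p = 0.207), with -0.20 in ERα(-) and 1.62 in ERα(+). Its paralogue SAMD9L was at 0.08.

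The IFIT genes, neighbours on chromosome 10 whose products bind viral RNA and translation factors, all had interactions above 0. IFIT3 had log2 signals of 5.01, 5.26 and 5.42 in control ERα(-), 4.61, 5.03 and 4.56 in shMOF ERα(-), 4.33, 4.43 and 4.58 in control ERα(+), and 5.17, 5.37 and 5.56 in shMOF ERα(+). Its interaction was 1.42 ± 0.22 (SE, adjusted p = 0.0696). IFIT1 had 6.27, 6.43 and 6.19 in control ERα(-), 5.96, 6.43 and 5.81 in shMOF ERα(-), 5.48, 5.67 and 5.54 in control ERα(+), and 6.18, 6.81 and 6.91 in shMOF ERα(+), for an interaction of 1.30 ± 0.27 (SE, adjusted p = 0.169). In both genes the 3 control ERα(+) arrays were the lowest group, and the ERα(+) groups did not overlap. IFIT2 had an interaction of 1.58 ± 0.37 and IFIT5 one of 0.81 ± 0.19 (SE). These family members are similar in sequence, and the files do not show whether probes are shared between them.

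RSAD2, the radical enzyme viperin, had log2 signals of 5.95, 5.54 and 5.51 in control ERα(-), 5.07, 5.36 and 4.84 in shMOF ERα(-), 4.72, 4.98 and 5.16 in control ERα(+), and 5.37, 6.24 and 6.0 in shMOF ERα(+). As with RIGI, each shMOF array lay below control in ERα(-) and above it in ERα(+), and the interaction was 1.5 ± 0.30 (SE, adjusted p = 0.169). HERC5, the ligase that attaches the ubiquitin-like ISG15, had log2 signals of 7.54, 7.31 and 7.34 in control ERα(-), 6.71, 7.40 and 6.84 in shMOF ERα(-), 6.92, 6.84 and 6.51 in control ERα(+), and 7.38, 7.78 and 7.70 in shMOF ERα(+). Its ERα(+) groups did not overlap, and the interaction was 1.28 ± 0.26 (SE, adjusted p = 0.169). DDX60, a helicase that aids RIG-I, was at 1.64 ± 0.37, OASL at 0.75 ± 0.27, SP110 at 0.66 ± 0.22 and HERC6 at 0.53 ± 0.18 (SE), all with unadjusted p below 0.05. ISG15 itself was at 0.44 (adjusted p = 0.379). Members below 0 were GBP3 (-0.46), IFITM2 (-0.32), IFI35 (-0.21), DDX60L (-0.19), DTX3L (-0.17), EPSTI1 (-0.16), BST2 (-0.12) and TRIM14 (-0.06), none at an unadjusted p below 0.05.

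The mean log2 signal of the 33 effectors was 5.65, 5.62 and 5.59 in control ERα(-), 5.46, 5.61 and 5.35 in shMOF ERα(-), 5.29, 5.31 and 5.46 in control ERα(+), and 5.58, 5.86 and 5.85 in shMOF ERα(+). The ERα(+) groups did not overlap, and in ERα(-) shMOF replicate 2 lay within the control arrays.

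Of the chemokines, which draw immune cells, 2 of 4 lay above 0 at an unadjusted p below 0.05 (50%, against 9.35% of all genes). CXCL10, the ligand of CXCR3, had log2 signals of 5.20, 5.13 and 5.04 in control ERα(-), 4.35, 5.13 and 4.52 in shMOF ERα(-), 4.11, 4.70 and 4.34 in control ERα(+), and 5.49, 5.48 and 5.23 in shMOF ERα(+). Its interaction was 1.47 ± 0.27 (SE, adjusted p = 0.169), and 1.71 without shMOF ERα(-) replicate 2 (adjusted p = 0.00493). CCL5 had an interaction of 0.76 ± 0.23 (SE) with groups apart in both conditions, in opposite directions. CXCL11 (0.33) and the dim CXCL9 (-0.28) did not reach an unadjusted p below 0.05. Of antigen presentation, TAPBP, which loads peptides on class I molecules, lay at -0.69 (adjusted p = 0.245) and B2M, their light chain, at -0.03.

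**Figure D2:**
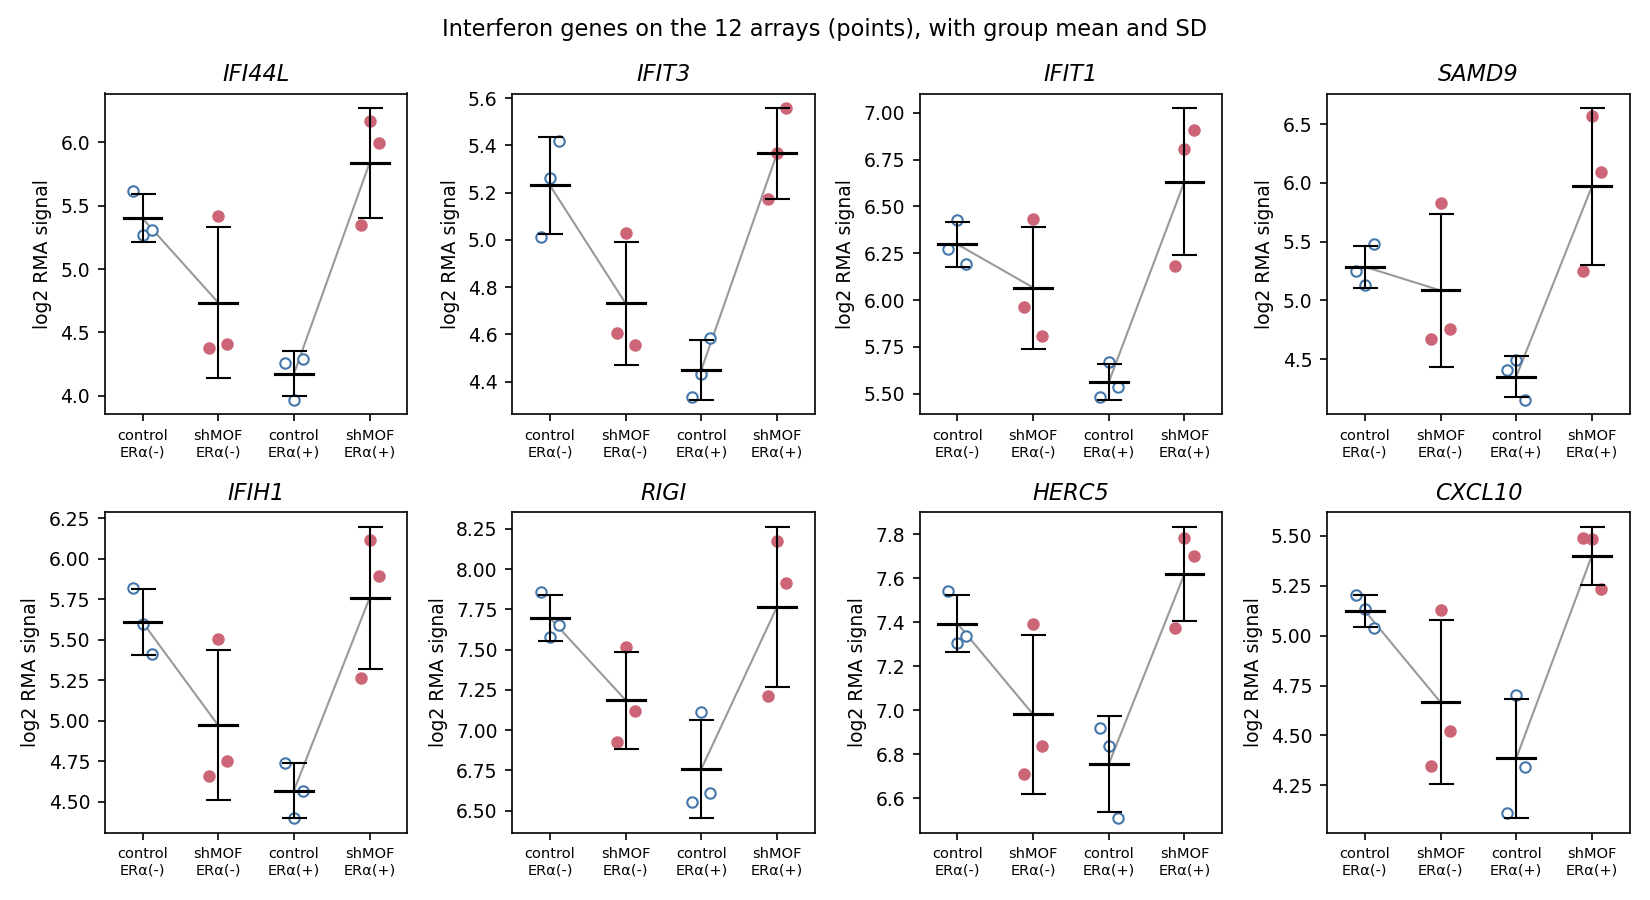
The y axes give log2 RMA signal, each on its own scale that does not start at 0; each point is 1 array, 3 in each of the 4 labelled groups, open for control and filled for shMOF, with bars for the mean and SD. In all 8 genes the control ERα(+) arrays have the lowest mean, shMOF ERα(+) lies above them, and shMOF ERα(-) replicate 2 is the highest of its group.

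Outside the interferon list, SOBP, a homologue of the fly sine oculis-binding protein, had one of the smallest p-values of all genes. Its log2 signals were 6.65, 6.49 and 6.38 in control ERα(-), 5.73, 6.16 and 6.02 in shMOF ERα(-), 5.81, 5.64 and 5.90 in control ERα(+), and 6.40, 6.53 and 6.45 in shMOF ERα(+). The shMOF arrays lay wholly below control in ERα(-) and wholly above in ERα(+), by -0.54 and 0.67. The interaction was 1.21 ± 0.19 (SE, 95% interval 0.81 to 1.62, adjusted p = 0.0696). It passed without shMOF ERα(-) replicate 2 (1.30, adjusted p = 0.00767) and with the letter in each sample's code as a random block (adjusted p = 0.0441). The latter fit had a negative correlation within letters, which can narrow the error.

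The other genes named for an interaction above 0 were OSBPL6 (0.87 ± 0.18, SE), a lipid transfer protein of the oxysterol-binding family, CPM (1.04 ± 0.22), the membrane carboxypeptidase M, and MED12L (1.11 ± 0.24), a paralogue of a Mediator kinase-module subunit. MCOLN3 (1.20 ± 0.26), an endolysosomal cation channel, ZC3H12C (1.46 ± 0.33), a CCCH zinc finger protein, and SELENOI (0.71 ± 0.16), an ethanolamine phosphotransferase, belonged there too. So did ZNF121 (0.89 ± 0.19), MSANTD4 (1.44 ± 0.31), HSD52 (1.66 ± 0.33) and the microRNA gene MIR4644 (1.0 ± 0.21). The pseudogene CHORDC1P4 (1.05 ± 0.24) resembles its parent gene, and the 2 cannot be told apart with confidence on an array. With RIGI, IFIT1, HERC5 and SOBP these made 15, none of which passed on all arrays (adjusted p from 0.0696 to 0.204). All 15 passed without shMOF ERα(-) replicate 2, but they were picked by p on arrays that this fit shares, so this is a description. With the first principal component in the model their median size was 0.65 in place of 1.20, all 15 kept their sign and 14 had an unadjusted p below 0.05.

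Among interactions below 0, G0S2, an inhibitor of the triglyceride lipase ATGL, was the largest of the genes named. Its log2 signals were 7.54, 8.40 and 7.83 in control ERα(-), 9.61, 7.40 and 9.50 in shMOF ERα(-), 9.30, 9.80 and 9.62 in control ERα(+), and 8.21, 7.74 and 7.95 in shMOF ERα(+). The same 5 arrays that were low for IFI44L were high here, at 9.30 or above, and the other 7 lay at 8.40 or below. The interaction was -2.52 ± 0.62 (SE, 95% interval -3.85 to -1.19, adjusted p = 0.207), and -3.24 without shMOF ERα(-) replicate 2 (adjusted p = 8.87e-04). With the first principal component in the model it was -1.14, not at an unadjusted p below 0.05.

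DHRS3, a reductase of retinaldehyde, had log2 signals of 6.89, 6.17 and 6.89 in control ERα(-), 7.84, 6.44 and 7.53 in shMOF ERα(-), 7.64, 7.50 and 8.28 in control ERα(+), and 6.82, 5.88 and 6.15 in shMOF ERα(+). The interaction was -2.14 ± 0.49 (SE, adjusted p = 0.197). BMP4, a secreted growth factor of the TGF-beta family, had 5.86, 6.53 and 6.01 in control ERα(-), 7.47, 5.93 and 7.29 in shMOF ERα(-), 7.22, 7.71 and 7.25 in control ERα(+), and 6.45, 6.16 and 6.35 in shMOF ERα(+), for an interaction of -1.84 ± 0.45 (SE, adjusted p = 0.207). CDA, which deaminates cytidine, had 5.78, 6.02 and 5.76 in control ERα(-), 7.20, 5.67 and 6.89 in shMOF ERα(-), 6.85, 7.04 and 7.12 in control ERα(+), and 6.16, 5.89 and 6.19 in shMOF ERα(+), for an interaction of -1.66 ± 0.40 (SE, adjusted p = 0.207). In all 3 genes shMOF ERα(-) replicates 1 and 3 lay with control ERα(+), and replicate 2 with control ERα(-). Under the first principal component they were at -0.86 (DHRS3), -1.01 (BMP4) and -0.66 (CDA), none at an unadjusted p below 0.05.

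TERC, the RNA template of telomerase, was separated in opposite directions in the 2 conditions. Its log2 signals were 8.85, 8.97 and 8.89 in control ERα(-), 9.46, 9.01 and 9.31 in shMOF ERα(-), 9.71, 9.39 and 9.75 in control ERα(+), and 9.28, 8.58 and 8.81 in shMOF ERα(+). The interaction was -1.09 ± 0.25 (SE, adjusted p = 0.197). DNM1, a dynamin that severs endocytic vesicles, had 6.60, 6.53 and 6.75 in control ERα(-), 7.55, 6.76 and 7.37 in shMOF ERα(-), 7.17, 7.10 and 7.37 in control ERα(+), and 6.97, 6.49 and 6.51 in shMOF ERα(+), for an interaction of -1.15 ± 0.27 (SE, adjusted p = 0.204). In both, replicate 2 of shMOF ERα(-) only just cleared the control arrays.

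The remaining genes named below 0 were the actin- and adhesion-linked TGFB1I1 (-0.98 ± 0.22, SE), TRIOBP (-0.87 ± 0.19) and SH3BGRL3 (-0.99 ± 0.24), the fucose mutarotase FUOM (-0.80 ± 0.19) and SPATC1L (-0.95 ± 0.19), besides 4 microRNA genes. The 15 had adjusted p from 0.169 to 0.207. Without shMOF ERα(-) replicate 2 all 15 passed, again a description, since they were picked by p on shared arrays. With the first principal component in the model their median size was 0.64 in place of 0.99, all kept their sign and 9 had an unadjusted p below 0.05. Of the opposed genes further named, SESN3, a stress-induced sestrin (1.03 ± 0.24), and ZNF141 (0.97 ± 0.24) lay below control in ERα(-) and above it in ERα(+). The chemokine CX3CL1 (-1.13 ± 0.28), TMEM106A (-0.98 ± 0.28) and MIR196B (-0.99 ± 0.30) did the reverse. TMEM106A and MIR196B did not pass without shMOF ERα(-) replicate 2 (adjusted p = 0.0561 and 0.0903).

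**Figure D3:**
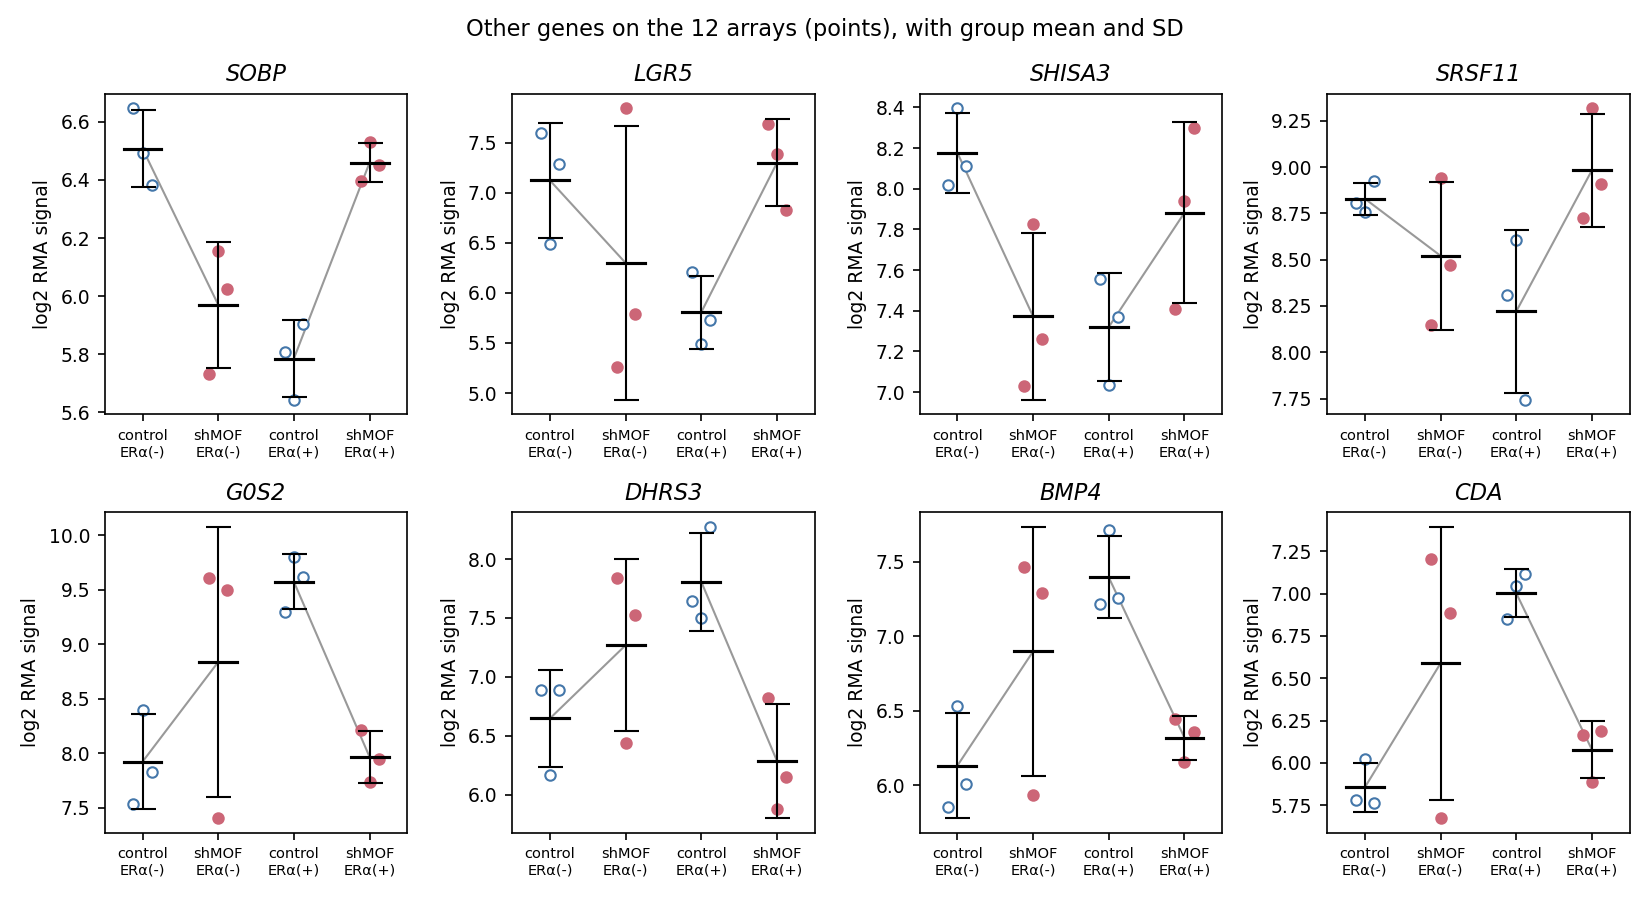
The y axes give log2 RMA signal, each on its own scale that does not start at 0; points are the arrays of the 4 labelled groups, open for control and filled for shMOF, with mean and SD. The upper 4 genes have an interaction above 0 and the lower 4 below 0. In LGR5, G0S2, DHRS3, BMP4 and CDA shMOF ERα(-) replicate 2 lies apart from replicates 1 and 3, while in SOBP replicate 1 lies farthest from the others.

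MicroRNA genes made up 4 of the 15 genes named for an interaction below 0, and MIR196B was 1 of the 5 opposed genes of that direction. Their mature sequences (RefSeq, GRCh38.p14) are shown with the seed, bases 2 to 8, in capitals, since the probe sets carry the name of the gene and do not tell the arms apart.
hsa-miR-4653-5p: uCUCUGAGcaaggcuuaacacc
hsa-miR-4653-3p: uGGAGUUAaggguugcuuggaga
hsa-miR-149-5p: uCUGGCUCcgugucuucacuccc
hsa-miR-149-3p: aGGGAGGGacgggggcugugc
hsa-miR-3159: uAGGAUUAcaagugucggccac
hsa-miR-622: aCAGUCUGcugagguuggagc
hsa-miR-196b-5p: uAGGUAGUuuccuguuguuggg
hsa-miR-196b-3p: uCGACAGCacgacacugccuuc
All 8 seeds differ. MIR4653 had log2 signals of 5.90, 6.33 and 6.06 in control ERα(-), 7.51, 6.73 and 7.25 in shMOF ERα(-), 7.32, 7.0 and 7.81 in control ERα(+), and 7.24, 6.40 and 6.76 in shMOF ERα(+). Its interaction was -1.64 ± 0.35 (SE, adjusted p = 0.169), and its other probe set gave -1.47. MIR149 lay at -0.78 ± 0.18, MIR622 at -0.95 ± 0.23 and MIR3159 at -0.86 ± 0.20 (SE). The difference for MIR3159 was -0.82 in ERα(+) and 0.04 in ERα(-). Over all 1098 microRNA genes the median was -0.07, against -0.03 over all genes, with 57 above (5.19%, against 9.35% of all genes) and 94 below 0 (8.56%, against 8.69%) at an unadjusted p below 0.05.

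Wnt pathway genes, which govern growth of epithelial stem cells, lay on both sides of 0. Of 23 measured, 6 lay above (26.1%, against 9.35% of all genes) and 3 below 0 (13%, against 8.69%; LEF1 at -0.87, ZNRF3 at -0.56 and LRP5 at -0.52) at an unadjusted p below 0.05, with a median of 0.02. LGR5, the R-spondin receptor that marks stem cells, had log2 signals of 7.60, 6.48 and 7.28 in control ERα(-), 5.26, 7.84 and 5.78 in shMOF ERα(-), 6.2, 5.49 and 5.73 in control ERα(+), and 7.68, 7.39 and 6.82 in shMOF ERα(+). Its interaction was 2.32 ± 0.72 (SE, adjusted p = 0.219) and 3.09 without shMOF ERα(-) replicate 2 (adjusted p = 0.00739). SHISA3, an inhibitor of Wnt receptors, was at 1.37 ± 0.33, WLS, which escorts Wnt ligands to the surface, at 0.77 ± 0.19, and APC, part of the complex that destroys beta-catenin, at 1.01 ± 0.35 (SE). Over 22 alternatives the interaction ran from 0.02 to 1.22 for APC and from 0.92 to 3.09 for LGR5. For SHISA3 it ran from 0.96 to 1.70 and for WLS from 0.68 to 0.93.

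Among junction and mesenchymal genes FN1, the matrix protein fibronectin, had log2 signals of 6.51, 6.60 and 6.38 in control ERα(-), 8.34, 6.14 and 8.34 in shMOF ERα(-), 7.53, 8.16 and 8.27 in control ERα(+), and 7.95, 6.71 and 6.75 in shMOF ERα(+). Its shMOF groups were each split, by replicate 2 in ERα(-) and by replicate 1 in ERα(+). The interaction was -1.96 ± 0.68 (SE, adjusted p = 0.223) and -2.69 without shMOF ERα(-) replicate 2 (adjusted p = 0.0109). It was -0.27 with the first principal component in the model (adjusted p = 0.986). The transcription factor FOXF2 was at -1.17 ± 0.35 and the epithelial splicing regulator ESRP2 at -0.57 ± 0.20, while the tight junction gene OCLN was at 0.79 ± 0.22 (SE). Of the 18 measured, 1 lay above (5.56%, against 9.35% of all genes) and 3 below 0 (16.7%, against 8.69%) at an unadjusted p below 0.05, with a median of -0.02. With the component in the model the counts were 0 and 0 and the median turned to 0.13.

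Genes of endometrial epithelium had a median of -0.39, with 2 of 14 above (14.3%, against 9.35% of all genes) and 5 below 0 (35.7%, against 8.69%) at an unadjusted p below 0.05. EMX2, a urogenital homeobox factor, was at -0.64 ± 0.19 and FOXA2, a factor of endometrial glands, at -0.67 ± 0.22. MSX1 (-0.66), SOX17 (-0.62) and KRT18 (-0.46) were the others below 0, whereas LGR5, counted here too, and the cytokine receptor LIFR (0.72 ± 0.25, SE) lay above 0. The median turned to 0.09 with the first principal component in the model. Oestrogen-induced genes had a median of -0.17, with 1 of 27 above (GREB1, 0.44 ± 0.19) and 3 below 0 (TSKU at -0.91 ± 0.30, HSPB8 at -0.55 ± 0.25 and ADCY9 at -0.40 ± 0.18, SE), and the median turned to 0.10 with the component. These counts are at an unadjusted p below 0.05. Their shares of 3.70% above and 11.1% below stand against 9.35% and 8.69% of all genes. Receptor co-regulators had a median of 0.12, with 11 of 15 above and 4 below 0, ESR1, counted here too, among the latter. At an unadjusted p below 0.05, 0 lay below 0 (8.69% of all genes did) and 4 above (26.7%, against 9.35%). These were MED1 (0.67 ± 0.18), KMT2C (0.83 ± 0.31), NCOA2 (0.77 ± 0.26) and NCOA1 (0.65 ± 0.26, SE), and all 4 passed without shMOF ERα(-) replicate 2 (adjusted p from 0.0325 to 0.0426). Under the component the median of the 15 was 0.01, with 0 above and 1 below 0 at an unadjusted p below 0.05. The 4 genes were at 0.29 (MED1), 0.04 (KMT2C), 0.06 (NCOA2) and -0.03 (NCOA1). Of the 12 genes of the MOF complexes, 7 lay above and 5 below 0. At an unadjusted p below 0.05, 2 lay above, OGT at 0.42 and PHF20 at 0.40 (16.7%, against 9.35% of all genes). Another 2 lay below, MCRS1 at -0.59 and HCFC1 at -0.49 (16.7%, against 8.69%). All 4 belong to the NSL complex, and 0 of the 4 measured MSL genes reached an unadjusted p below 0.05.

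Several lists of basic cell machinery had medians above 0. Of 13 genes of vesicle traffic and the Golgi, 8 lay above and 1 below 0 (ARF1, -0.42) at an unadjusted p below 0.05, with a median of 0.77. The counts of the lists that follow are at the same unadjusted p. The shares of all genes, here and for those lists, were 9.35% above and 8.69% below. VPS13C, a bridge for lipid transfer between membranes, was at 1.32 ± 0.38 and the Golgi tether GOLGB1 at 1.10 ± 0.33 (SE). Of 22 splicing genes 11 lay above and 0 below 0, with a median of 0.50, among them SRSF11 (1.07 ± 0.33) and RBM39 (0.77 ± 0.23, SE). Chromatin genes had a median of 0.16 with 8 of 25 above and 0 below 0, led by ARID5B (1.34 ± 0.37), CHD9 (1.12 ± 0.36) and the deacetylase SIRT1 (0.81 ± 0.26, SE). DNA repair genes had a median of 0.43 with 3 of 12 above 0 (NBN at 0.72, PALB2 at 0.56 and CHEK1 at 0.51) and 1 below (MDC1 at -0.36). With the first principal component in the model the medians were -0.06, 0.07, 0.02 and -0.19 in the order given. Among 436 ZNF zinc finger genes, 98 lay above (22.5%, against 9.35% of all genes) and 13 below 0 (2.98%, against 8.69%), with a median of 0.17.

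Lists with medians below 0 were those of oxidative phosphorylation (-0.34, 0 of 8 above and 3 below 0 at an unadjusted p below 0.05, namely COX5B, CYC1 and UQCRC1), mitochondrial ribosomal proteins (-0.28, 0 and 6 of 29), cytosolic ribosomal proteins (-0.24, 0 and 1 of 19, RPL35) and the cell cycle (-0.12, 1 and 9 of 38). COX5B, a subunit of cytochrome oxidase, was at -0.68 ± 0.27, MRPS2 at -0.59 ± 0.23, and the mitotic kinases PLK1 and AURKB at -0.64 ± 0.22 and -0.72 ± 0.26 (SE). KIF11, the mitotic kinesin, went the other way at 0.60 ± 0.26. With the first principal component in the model the 4 medians were -0.03, -0.05, -0.02 and -0.07. The p53 targets at an unadjusted p below 0.05 were RRM2B, a ribonucleotide reductase subunit, at 1.21 ± 0.34, and TP53I3 at -0.51 ± 0.21 (SE). Each is 10% of the 10 measured, near the 9.35% above and 8.69% below 0 of all genes.

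The lists of stress responses depended on which control ERα(-) array was left out, and replicate 1 stood apart in some of their genes. The hypoxia gene ANKRD37 had log2 signals of 8.07, 5.42 and 5.47 in control ERα(-), with 5.27 to 5.87 on the other 9 arrays. DDIT3, a factor of the unfolded protein response, had 8.26, 5.70 and 5.41 in control ERα(-), with 5.31 to 6.08 elsewhere. Their interactions of 0.81 and 0.74 became -0.07 and -0.17 without that array. The medians of the 2 lists were -0.12 (hypoxia and glycolysis) and 0.08 (ATF4 and unfolded protein response) on all arrays. At their lowest they were -0.79 and -0.35, without 3 arrays and without control ERα(-) replicate 1 respectively, and at their highest 0.42 and 0.48, both with the first principal component in the model. Leaving out replicate 2 or replicate 3 of control ERα(-) turned the hypoxia median to 0.18 or 0.23. The immediate early genes EGR1 (1.25 ± 0.40) and ATF3 (0.99 ± 0.51) lay above 0 through ERα(-), with control ERα(-) replicate 1 the highest array, while FOSL1 (-1.16 ± 0.34) and IER5 (-0.84 ± 0.24, SE) lay below 0. The second probe set of EGR1 gave 0.30.

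**Figure D4:**
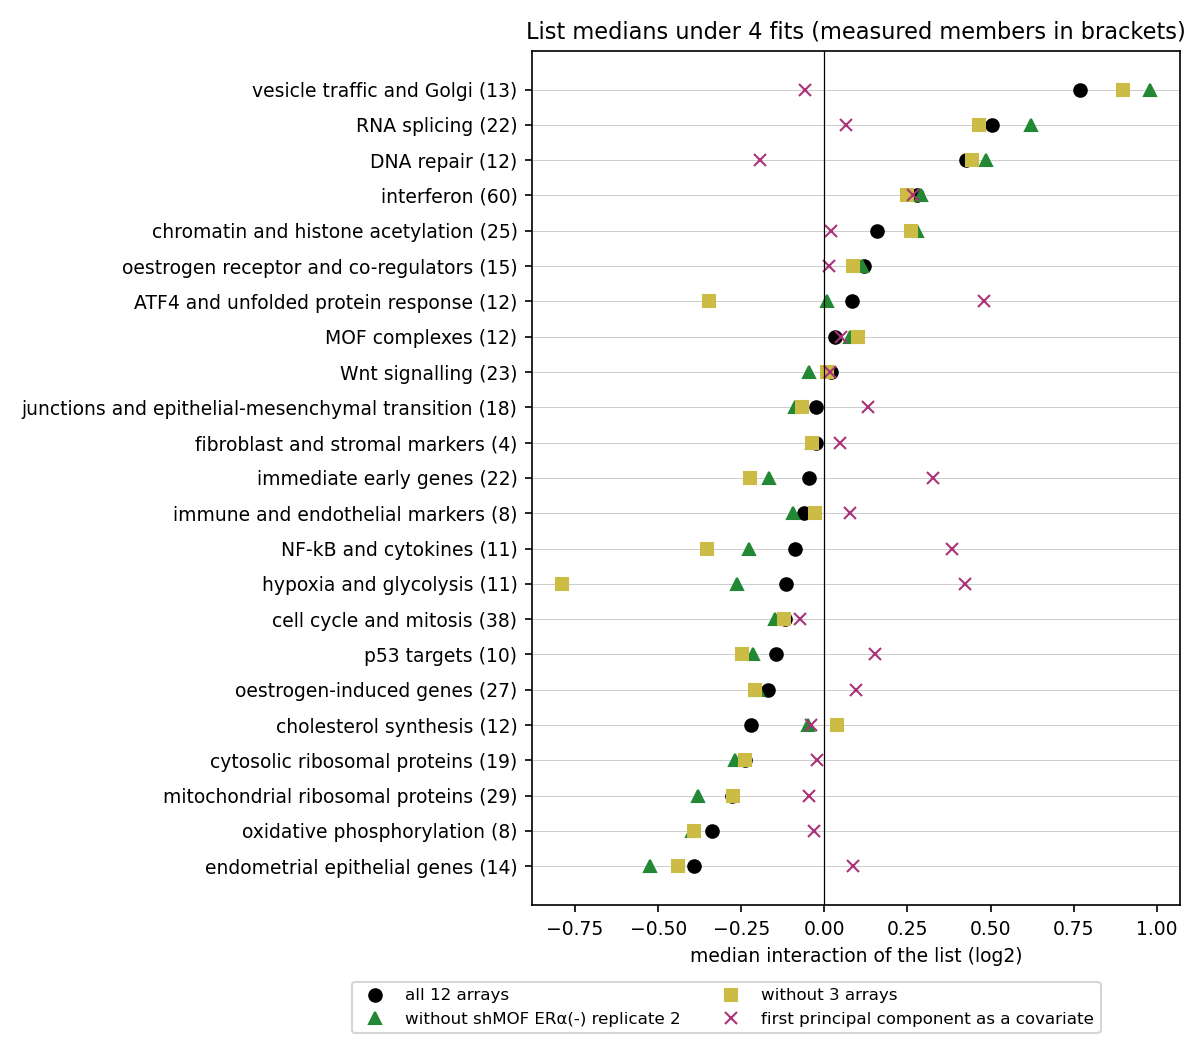
The x axis gives the median interaction (log2) of each list, with its measured members in brackets; circles are all 12 arrays, triangles the fit without shMOF ERα(-) replicate 2, squares the fit without 3 arrays, and crosses the fit with the first principal component in the model. The interferon median stays between 0.25 and 0.29 under all 4 fits, while vesicle traffic is at 0.77 on all arrays and -0.06 with the component, and RNA splicing at 0.50 and 0.07. The list median does not show that the 16 interferon genes named had a median size of 1.49 on all arrays and 0.84 with the component.

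The interaction also varied with the length of the gene. Protein-coding genes were divided into 4 classes of 2979 by their span in RefSeq GRCh38.p14. The median interaction was -0.15 in the shortest class, then -0.08, 0.02 and 0.13. The share above 0 at an unadjusted p below 0.05 was 2.42%, 6.51%, 13.3% and 19.6% in the same order, and the share below 0 was 12.7%, 11.1%, 7.72% and 5.27%. The mean signal of the longest less the shortest class was 0.52, 0.52 and 0.57 in control ERα(-), 0.33, 0.65 and 0.45 in shMOF ERα(-), 0.40, 0.53 and 0.24 in control ERα(+), and 0.57, 0.76 and 0.59 in shMOF ERα(+). The ERα(+) groups did not overlap in this measure either, and its part in the lists above was not tested.

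**Figure D5:**
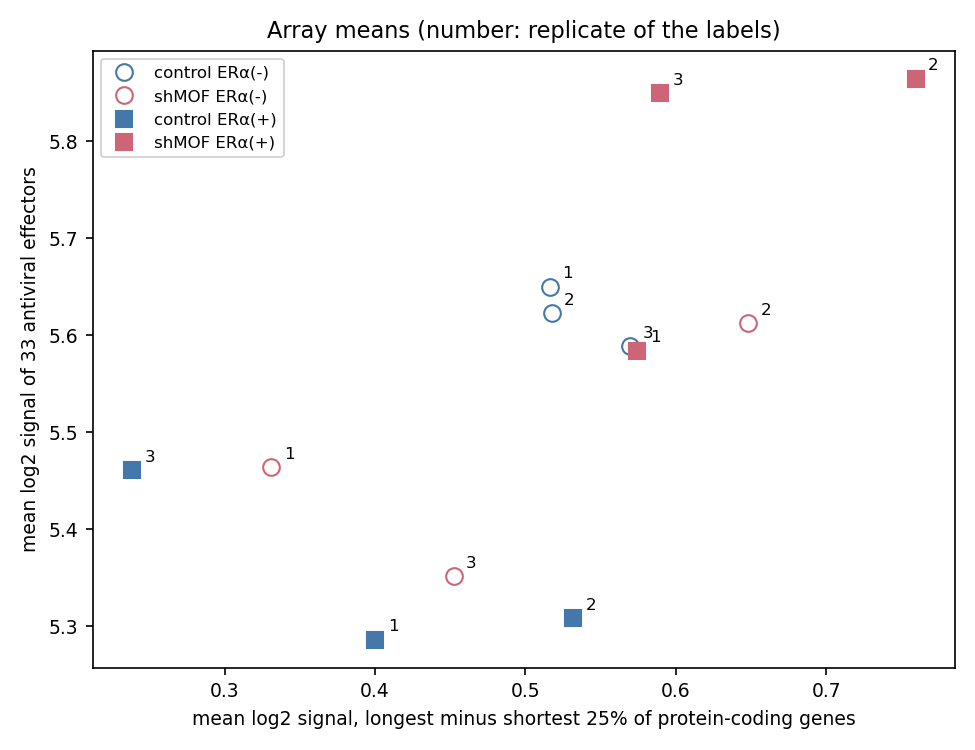
The x axis gives, for each array, the mean log2 signal of the longest less the shortest 25% of protein-coding genes, and the y axis the mean log2 signal of the 33 interferon effectors; colour gives the shMOF label, symbol the ERα label and the number the replicate. shMOF ERα(+) arrays lie at the upper right (0.57 to 0.76 and 5.58 to 5.86), control ERα(+) arrays lower (0.24 to 0.53 and 5.29 to 5.46).

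Some genes outside the naming rule were called with another treatment of the arrays, and they are named here after their values were seen. NEXMIF, a neuronal gene on the X chromosome, had log2 signals of 5.16, 5.01 and 4.96 in control ERα(-), 3.06, 4.75 and 3.07 in shMOF ERα(-), 3.10, 2.80 and 2.82 in control ERα(+), and 3.34, 5.14 and 4.99 in shMOF ERα(+). IGF2BP1, an oncofetal RNA-binding protein, had 7.14, 8.05 and 7.15, then 5.57, 7.22 and 5.34, then 5.62, 5.52 and 5.23, then 5.36, 7.71 and 7.77 in the same order of groups. Both fell into 2 clear levels, with shMOF ERα(-) replicate 2 at the upper level and shMOF ERα(+) replicate 1 at the lower, each against its own group. Their interactions were 3.00 and 2.90 (adjusted p = 0.169 and 0.219), and both passed without shMOF ERα(+) replicate 1. Since that array lay apart from its group in both genes, leaving it out enlarges the ERα(+) difference and tends to lower the spread. These passes are therefore descriptions.

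KIF5C, a kinesin of axons, had log2 signals of 4.45, 4.41 and 4.00 in control ERα(-), 3.20, 3.42 and 3.32 in shMOF ERα(-), 3.59, 3.57 and 3.33 in control ERα(+), and 3.70, 4.20 and 4.01 in shMOF ERα(+). LINC00353, a long noncoding RNA, had 2.72, 2.67 and 2.39 in control ERα(-), 3.40, 3.40 and 3.83 in shMOF ERα(-), 3.37, 3.61 and 3.23 in control ERα(+), and 3.03, 2.68 and 2.71 in shMOF ERα(+). The groups were apart in both conditions, in opposite directions, with interactions of 1.45 and -1.54 (both adjusted p = 0.0696). Both are dim, at the 17.6th and 9.54th percentile of tested genes, where RMA can compress differences. The transcription factor gene TRPS1 (1.32, adjusted p = 0.169) also passed without shMOF ERα(+) replicate 1, as did IFI44L, IFIH1, IFIT1, IFIT3, RIGI, RSAD2, KIF5C and LINC00353. In each of these genes that array was the nearest of its group to control ERα(+), so these passes are descriptions too.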

How the data were processed

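Total RNA of Ishikawa cells in 12 samples was labelled with biotin and hybridised to arrays, per the labels' protocols. The authors deposited log2 values. Affymetrix Expression Console 1.4.1 and RMA are named in the submitters' processing notes. RMA subtracts background, equalises the arrays' distributions, summarises probes and can compress differences of dim genes. The array annotation's build is not given in the sources used here. Of 53617 probe sets, 16098 had 1 gene symbol in the platform annotation and 37519 had none. For 779 genes with several, the probe set with the highest mean stood for the gene, which left 14884 genes and no filter on dim ones.

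The interaction was fitted with limma 3.58.1 in R 4.3.3 (a mean per group, lmFit and eBayes, two-sided, 8 residual and 5.60 prior degrees of freedom), with Benjamini-Hochberg adjustment over all genes and a threshold of 0.05. A two-sided exact test of 3 arrays against 3 cannot give p below 0.1. That limit is for the groups within a condition and not for the interaction. The script was tested on simulated data. The number of arrays limits the precision.

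Named were KAT8 and ESR1, up to 15 genes per direction with the smallest p, a mean at or above the median and groups apart in at least 1 condition, up to 5 opposed genes per direction, and up to 4 members of each of 23 lists by p (16 for interferon). The members and lists were chosen with earlier results of these data known, so list counts and medians are descriptions. Alternatives were other summaries of probe sets, a filter on dim genes, renormalization, a mean-variance trend, array weights, the replicate number or code letter as a block, a 1.5-fold threshold and each array left out. After the data were seen, a fit without 3 arrays and one with the first principal component were added. Sequences and gene spans are from RefSeq GRCh38.p14. Same-numbered arrays deviated together in 5 of 18 pairs (r above 0.1), so the numbers were not taken as pairs. Among the 5 were the replicate 2 arrays of shMOF ERα(-), control ERα(+) and shMOF ERα(+), at r from 0.24 to 0.45. Their r with control ERα(-) replicate 2 was -0.18 to 0.07.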

Additional observations from a re-analysis of the deposited data

Results flagged for a closer look

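For 20 of the genes named, every shMOF array lay on one side of all control arrays in ERα(-) and on the other side in ERα(+). This is met by 1.26% of all genes, and the naming rule picked some of the 20 for it. The difference between the conditions was tested by limma's interaction, which none of the 20 passed on all 12 arrays after adjustment (smallest adjusted p = 0.0696).

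Lower than control in ERα(-) and higher in ERα(+) were RIGI (interaction 1.52), RSAD2 (1.5), SOBP (1.21), CPM (1.04), SESN3 (1.03), ZNF141 (0.97), ZNF121 (0.89), OSBPL6 (0.87), CCL5 (0.76) and SELENOI (0.71). Higher in ERα(-) and lower in ERα(+) were DNM1 (-1.15), CX3CL1 (-1.13), TERC (-1.09), MIR196B (-0.99), TMEM106A (-0.98), SPATC1L (-0.95), TRIOBP (-0.87), FUOM (-0.80), MIR149 (-0.78) and MDC1 (-0.36). MDC1 has 8 named probe sets, whose interactions ran from -0.36 to -0.27.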

How the results depend on the processing

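Counts moved most. Adjusted calls, 0 with all arrays, were 3258 with array weights, 5 with the code letter as a random block (IFI44L, IFIT3, KIF5C, LINC00353 and SOBP), 2 with the replicate number as a block (ITM2A and MMP16), 57 without 3 arrays and 0 to 570 with 1 array left out. The replicate block is given for completeness, since most same-numbered arrays did not deviate together. Genes at an unadjusted p below 0.05, 2685 with all arrays, were 6566 over all probe sets, 5734 with weights, 1542 past 1.5-fold, 758 with the first principal component and 1494 to 4036 with 1 array left out. Opposed genes, 187 with all arrays, were 615 over all probe sets, 224 to 1756 with 1 array left out and 2508 without 3 arrays, where fewer arrays overlap less by construction. The trend, weights, blocks and covariate give no value for that count. The interferon median of 0.28 was 0.20 with every named probe set, 0.42 with the filter on dim genes, 0.42 with weights and 0.19 to 0.33 with 1 array left out, and turned sign in 0 of 22 alternatives. The causes were not tested.

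Of 137 genes named, 20 changed sign somewhere. With the first principal component these were NCOA1 (-0.031), LIF (0.051), NFKB2 (0.54), SDF2L1 (0.014), ATF4 (0.13), MCM2 (0.036), KIF11 (-0.068), BAX (0.29), NBN (-0.15), RPS16 (0.060), CYC1 (0.016), GCC2 (-0.16), DCN (0.012) and VIM (0.19). Without 3 arrays they were DDIT3 (-0.020), DCN (0.019) and LUM (-0.072). With 1 array left out, KAT8 ran from -0.066 to 0.12, DDIT3 from -0.17 to 1.26, PSAT1 from -0.037 to 0.37, ANKRD37 from -0.067 to 1.26, DCN from -0.12 to 0.030, LUM from -0.054 to 0.21 and VIM from -0.12 to 0.085. After renormalization DCN was 0.056 and VIM 0.0027, and VIM was 0.0088 with arrays at one median, 0.26 with weights and 0.026 with the code letter. With the mean of all probe sets VIM was 0.20 and LYZ -0.17.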
